A study of Mus musculus with 17 samples.

Results

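The genes examined were 8 of the 48795 genes in a table of read counts from mouse kidney cortex. Lrp2, Cubn, Amn and Dab2 serve protein uptake in the proximal tubule, and Hnf4a, Pax2, Pax8 and Esrrg encode transcription factors of the nephron. They were taken by gene name, and all 8 passed the expression minimum in every comparison. The 17 libraries are labelled as cortices of 5 wild-type mice (WT), 5 mice with ATF4 deleted in the proximal tubule (GCERAd), 3 mice of TRACK, a transgenic model of kidney cancer, and 4 TRACK mice with ATF4 deleted (GCERAdT). The GCERAd mice carried floxed ATF4 alleles and a tamoxifen-inducible CreER under a portion of the Ggt1 promoter, whose gene is expressed mainly in the proximal tubule. Tamoxifen (200 µL, 20 mg/mL) was given to them daily over 2 days from an age of 6 weeks, and WT and GCERAd mice were fasted for 16 h. Whether WT mice received tamoxifen is not given in the sources used here, nor are the age, treatment and fasting of the TRACK and GCERAdT mice. The protocol speaks of 3 to 4 mice per cohort, whereas the labels number 5 WT and 5 GCERAd mice. In the sequencing table of the study, 2 sample names recur with a letter added and a barcode of their own, so the 5 libraries of a group may come from fewer mice, and p-values over 5 would then be too small.

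Megalin, encoded by Lrp2, and cubilin, encoded by Cubn, are very large receptors of the proximal tubule brush border that take up filtered proteins and vitamin carriers. Cubilin has no membrane span of its own and reaches the surface with amnionless, encoded by Amn, while Dab2 encodes an adaptor that links receptor tails to clathrin. Hnf4a encodes a nuclear receptor of proximal tubule maturation, Pax2 and Pax8 encode paired-box factors of nephron formation, and Esrrg encodes an orphan nuclear receptor of energy metabolism.

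The libraries held 53688512 to 71364561 counts. By the share of counts on processed pseudogenes they fell into 2 kinds, with 0.0320 to 0.0380% in 8 libraries (kind A) and 0.0574 to 0.0785% in 9 (kind B: WT 2, GCERAd 3 to 5, GCERAdT 3 and 4 and all 3 TRACK libraries). All 5 WT cortices expressed Xist, at 147 to 422 CPM (library-scaled counts, scaled by TMM over all 17 libraries), with Ddx3y at 0, whereas the 12 others had Ddx3y at 49.7 to 79.9 CPM and Xist at no more than 6.06 CPM. In every contrast against WT, and so in the difference between the ATF4 contrasts, genotype and sex therefore cannot be told apart. Atf4, the deleted gene, was at 84.8 ± 10.1 CPM in WT and 64.6 ± 8.91 CPM in GCERAd (SD, 5 each), a log2 fold change of -0.38 (SE 0.11, adjusted p = 0.0218). In the libraries labelled GCERAdT it was at 93.3 ± 9.58 CPM (4 samples) against 83.6 ± 8.54 CPM in TRACK (3 samples), a log2 fold change of 0.17 (SE 0.11, adjusted p = 0.367). The level thus went against that label, and GCERAdT stands here for the libraries so labelled. A count for the whole gene also takes in any exon outside the deleted part.

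GCERAd 4 and 5 stood apart. Over 11942 genes their log2 CPM correlated at 0.968 to 0.975 with GCERAd 1 to 3 and at 0.972 to 0.977 with TRACK, whereas GCERAd 1 to 3 correlated with TRACK at 0.946 to 0.954. All 15 proximal tubule markers were expressed in every group, with summed levels of 22398 to 27610.2 CPM in WT, 47966 to 60549 in GCERAd, 34909 to 49644 in TRACK and 38916 to 50314 in GCERAdT. Kap alone had mean levels of 6883, 25044, 22175 and 24932 CPM in these groups, while the median log2 fold change of the 15 was 0.36 in GCERAd over WT and 0.23 in TRACK over WT. The 7 collecting duct markers summed to 906 to 1096 CPM in WT and to no more than 654 CPM elsewhere. The 7 thick limb and distal tubule markers summed to 6429 to 8807 CPM in WT, 4279 to 5357 in GCERAd, 4120.3 to 6813 in TRACK and 5046 to 5528 in GCERAdT. In TRACK, the sums of 4 endothelial markers (599.6 to 703 CPM) and 4 podocyte markers (525 to 542 CPM) lay above all other groups. The 4 stromal markers summed to 61.2 to 71.4 CPM in WT, 70.02 to 137 in GCERAd, 101 to 203 in TRACK and 80.6 to 120.2 in GCERAdT, and the 4 immune markers to no more than 219.5 CPM. Adipocyte markers summed to no more than 30.9 CPM and muscle markers to no more than 10.4 CPM, with Myh4 at 0 in every group. The part of these shifts in the results was not tested, and in bulk cortex fewer cells of a type and less RNA per cell cannot be told apart.

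Per length of merged exons, Hnf4a was the most abundant of the genes in WT, at 179 ± 10.3 FPKM (SD, 5 samples). Lrp2 followed at 103 ± 17.7 FPKM, Dab2 at 62.1 ± 2.9, Amn at 47.5 ± 2.81 and Cubn at 27.6 ± 4.91. The level of the amnionless gene thus lay above that of its partner cubilin. Pax8, at 12.6 ± 1.42 FPKM, and Esrrg, at 12.3 ± 0.832, did not differ beyond their spread, and Pax2 was lowest at 8 ± 1.59. In GCERAd, Esrrg was at 16.2 ± 0.837 FPKM, Pax8 at 11.2 ± 1.33 and Pax2 at 4.77 ± 1.21. The spread within a group ranged from a coefficient of variation of 2.62% (Hnf4a in TRACK) to 29.7% (Lrp2 in GCERAd).

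**Figure D1:**
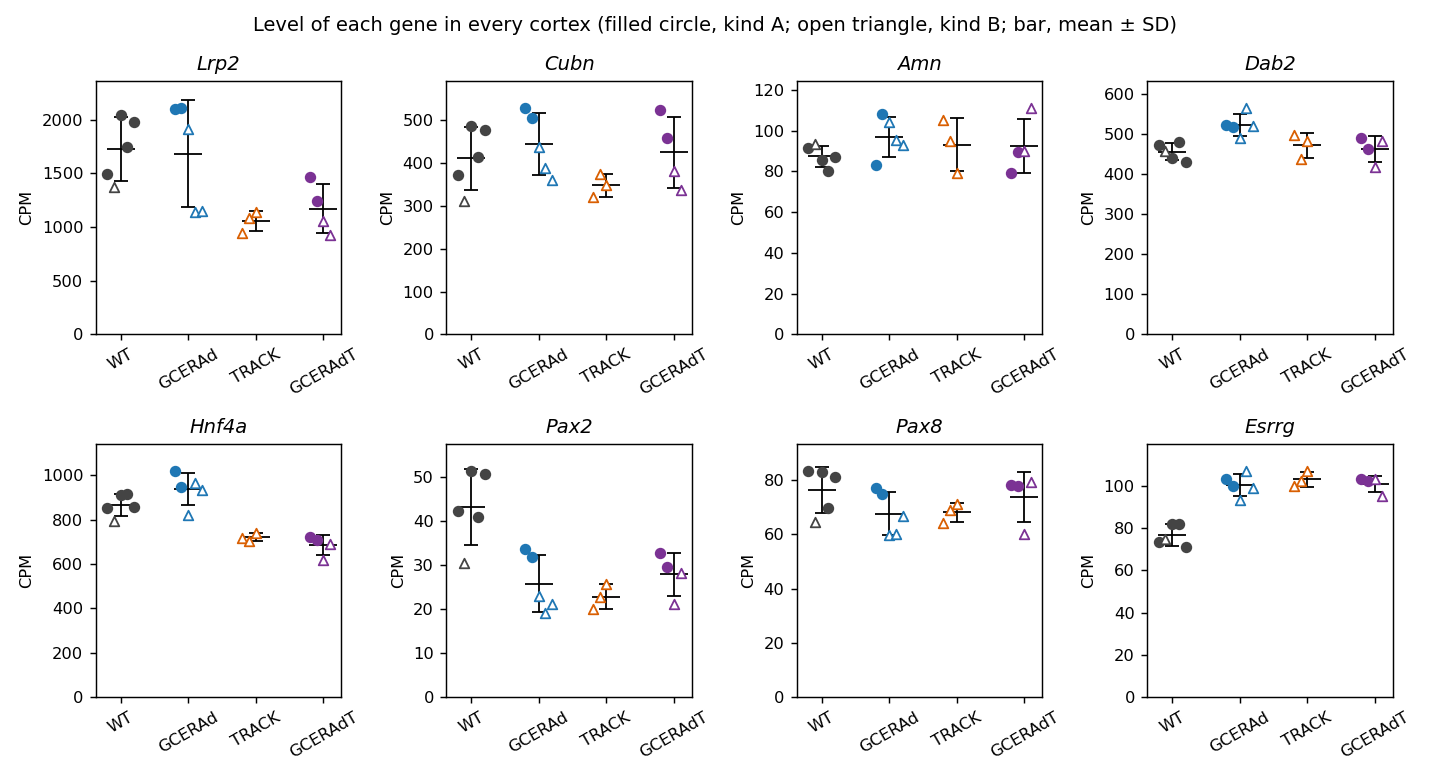
CPM (y axis, library-scaled counts) of each of the 8 genes in every cortex, by group (x axis), marked by library kind, with the mean and SD of 5 WT, 5 GCERAd, 3 TRACK and 4 GCERAdT cortices. WT cortices lie below all others for Esrrg, TRACK and GCERAdT cortices lie below all others for Hnf4a, and GCERAd 4 and 5 lie far below GCERAd 1 to 3 for Lrp2.

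The 250 bases before an annotated start are printed for both receptors, so that they can be read beside each other, and for Hnf4a and Esrrg. Levels of the latter genes separated groups without overlap, as did those of Dab2, and of Pax2 and Lrp2 in TRACK over WT. The share of all genes that do so is not given here. The printed bases are GRCm38.p6 sequence from RefSeq, in which the 8 genes have 15 such windows. Lrp2 (gene at chr2:69424340-69586065) and Cubn (chr2:13276338-13491813) lie on the minus strand, with windows at chr2:69586030-69586279 and chr2:13491877-13492126. Hnf4a (chr2:163506808-163572910) and Esrrg (chr1:187608791-188214885) lie on the plus strand, with windows at chr2:163506607-163506856, chr2:163546905-163547154 and, for the first of the Esrrg starts, chr1:187608756-187609005. The gene spans are those of GENCODE M21 and the window starts those of RefSeq, so a window can lie partly or wholly within the span. Capitals mark GTTAAT, the half-site of HNF1 factors, and the CCAAT box, on either strand.
Lrp2: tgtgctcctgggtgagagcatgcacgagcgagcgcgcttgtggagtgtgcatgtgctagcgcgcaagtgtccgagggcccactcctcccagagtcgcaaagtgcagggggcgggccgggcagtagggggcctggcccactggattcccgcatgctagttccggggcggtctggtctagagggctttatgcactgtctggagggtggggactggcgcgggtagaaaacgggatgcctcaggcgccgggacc
Cubn: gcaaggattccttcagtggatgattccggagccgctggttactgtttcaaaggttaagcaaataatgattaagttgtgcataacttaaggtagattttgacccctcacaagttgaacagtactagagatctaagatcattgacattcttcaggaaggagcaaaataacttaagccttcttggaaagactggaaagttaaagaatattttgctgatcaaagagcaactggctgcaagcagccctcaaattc
Hnf4a, upstream start: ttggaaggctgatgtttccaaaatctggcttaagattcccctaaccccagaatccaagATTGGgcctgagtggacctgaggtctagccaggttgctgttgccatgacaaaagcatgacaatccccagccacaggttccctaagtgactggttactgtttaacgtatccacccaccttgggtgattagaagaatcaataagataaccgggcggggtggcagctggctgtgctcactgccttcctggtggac
Hnf4a, downstream start: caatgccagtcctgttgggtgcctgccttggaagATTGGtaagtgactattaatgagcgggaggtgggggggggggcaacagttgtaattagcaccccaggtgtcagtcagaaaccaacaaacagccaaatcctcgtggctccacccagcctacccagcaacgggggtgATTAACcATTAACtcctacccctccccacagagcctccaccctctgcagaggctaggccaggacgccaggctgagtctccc
Esrrg: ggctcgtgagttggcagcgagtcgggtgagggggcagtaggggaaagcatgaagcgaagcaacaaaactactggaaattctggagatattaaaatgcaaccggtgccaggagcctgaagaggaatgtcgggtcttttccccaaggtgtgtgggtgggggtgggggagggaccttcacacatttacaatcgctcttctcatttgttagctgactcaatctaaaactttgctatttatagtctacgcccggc
The downstream Hnf4a window holds 2 copies of the half-site, beginning 81 and 74 bases before the start. GTTAAT occurred in 2113 of 32851 windows of this length (6.43%) and in 2 of the 15, that of Hnf4a and 1 of Dab2. The CCAAT box occurred in 33.8% of all windows and in 5 of the 15, among them both of Hnf4a. An Esrrg window not printed here, at chr1:187997577-187997826, held 2 copies of the box, and the printed Esrrg window held none. Neither receptor window held these letters, and they differed in base content, with 66.4% G and C for Lrp2 and 39.6% for Cubn. CAAAGTCCA, a form of the HNF4 site (0.384% of windows), TCAAGGTCA, the estrogen-related receptor site (0.387%), and TGATGCAAT, a composite site of ATF4 and C/EBP factors (0.167%), were in none of the 15, on either strand. A match is a run of letters and not a site, and counts for a whole gene do not tell its starts apart.

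GCERAd over WT compared ATF4-deleted with wild-type cortex. Of the 8 genes, 3 were called at an adjusted p of at most 0.05, Dab2 and Esrrg as higher and Pax2 as lower, where 27.6% of 11581 genes were called (14.1% higher, 13.5% lower). TRACK over WT called 4 of the 8, Esrrg as higher and Lrp2, Hnf4a and Pax2 as lower, where 45.6% of 11967 genes were called (23.0% higher, 22.6% lower). GCERAdT over TRACK, the ATF4 contrast within the cancer model, called none of the 8, where 7.09% of 11928 genes were called (2.81% higher, 4.28% lower). There, edgeR gave 0 of the 8 an unadjusted p under 0.05 (the lowest was 0.0708), and DESeq2 called 0. GCERAdT over GCERAd, the cancer model among mice labelled as ATF4-deleted, called Hnf4a, as lower, where 19.2% of 11816 genes were called (9.39% higher, 9.79% lower). The difference of the ATF4 contrasts (GCERAdT over TRACK minus GCERAd over WT) called Pax2 as higher and Esrrg as lower, where 25.1% of 12208 genes were called (12.3% higher, 12.8% lower). The comparisons share groups and are not independent of each other. Where nothing but the labels says that libraries came from separate mice, the p-values measure the spread between these samples.

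**Figure D2:**
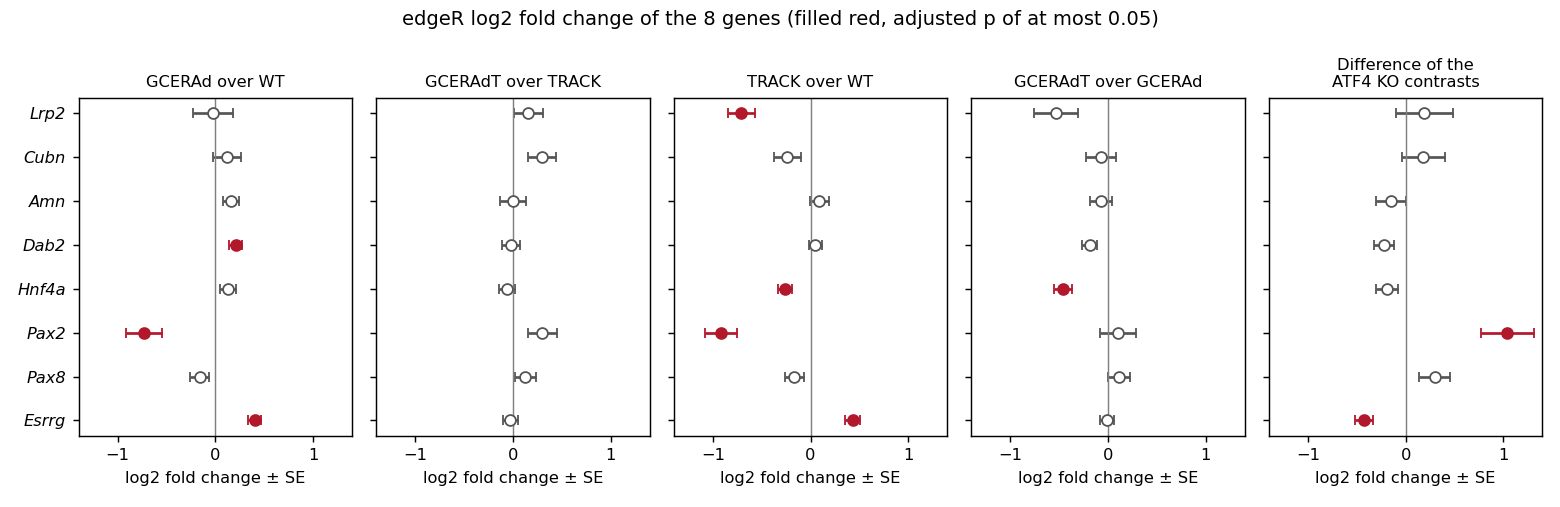
Log2 fold change (x axis) with its SE for each of the 8 genes (y axis) in the 4 comparisons and in the difference of the ATF4 contrasts, with the genes called at an adjusted p of at most 0.05 marked. Called were 3 genes in GCERAd over WT, 0 in GCERAdT over TRACK, 4 in TRACK over WT, 1 in GCERAdT over GCERAd and 2 in the difference.

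Lrp2, the megalin gene, was at 1495, 1371, 2049, 1746 and 1979 CPM in WT 1 to 5 and at 2104, 2108, 1916, 1136 and 1147 CPM in GCERAd 1 to 5. GCERAd thus held 3 high values and a low pair beneath every WT value, and the log2 fold change was -0.03 (SE 0.20, adjusted p = 0.938). Without GCERAd 4 and 5 it was 0.26 (adjusted p = 0.155), and with kind as a term in the model 0.16 (adjusted p = 0.51). The sign also changed on leaving out WT 3, WT 5, GCERAd 4 or GCERAd 5 alone (-0.12 to 0.09 over all libraries left out). The change thus had no settled direction. In TRACK 1 to 3 the level was 949, 1084 and 1138 CPM, beneath every WT cortex. TRACK over WT was -0.71 (SE 0.14, adjusted p = 0.00239) (the level fell by 38.8%), with an exact two-sided permutation p of 0.0357, the smallest that 3 against 5 allow. Against WT 2, the 1 WT library of the kind of all TRACK libraries, it was -0.37 (adjusted p = 0.131), and with kind as a term in the model, which rests on the same library, -0.37 (adjusted p = 0.146). In GCERAdT 1 to 4 the level was 1463, 1239, 1059 and 928 CPM, overlapping TRACK, and the log2 fold change was 0.16 (SE 0.15, adjusted p = 0.548), or -0.08 (adjusted p = 0.768) with kind in the model.

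Against GCERAd, the mean level of Lrp2 in GCERAdT gave a log2 fold change of -0.53 (SE 0.23, adjusted p = 0.128), which missed the threshold. Same-numbered libraries of these groups deviated together from their group means (r of 0.305 to 0.460). They were also of the same kind, A for numbers 1 and 2 and B for 3 and 4, so pairing and kind cannot be told apart. With the replicate number as a block the Lrp2 change was called, at -0.62 (adjusted p = 0.0069). It was also called within kind A, at -0.63 (adjusted p = 0.00232), with kind in the model, at -0.57 (adjusted p = 0.0272), without GCERAd 4 and 5, at -0.80 (adjusted p = 0.00242), and by DESeq2, at -0.53 (adjusted p = 0.0485). It was not called within kind B, at -0.51 (adjusted p = 0.354), with repeat libraries summed, at -0.45 (adjusted p = 0.244), with 3 repeat pairs summed, at -0.45 (adjusted p = 0.346), with RLE scaling, at -0.53 (adjusted p = 0.133), with no FPKM minimum, at -0.55 (adjusted p = 0.126), in 1 fit of all 17 libraries, at -0.52 (adjusted p = 0.0671), or on leaving out any 1 library. Lrp2 was lower in GCERAdT in each of these fits, and the fit decided whether it passed.

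Cubn, the cubilin gene, was at 371, 311, 487, 413 and 476 CPM in WT and 528, 504, 437, 388 and 360.0 CPM in GCERAd. The groups overlapped, with a log2 fold change of 0.12 (SE 0.14, adjusted p = 0.562), which passed at 0.29 (adjusted p = 0.0451) with kind in the model. TRACK had 321, 375 and 348 CPM and GCERAdT 524, 459, 381 and 336 CPM, where the kind A libraries GCERAdT 1 and 2 were the highest of both groups. GCERAdT over TRACK was 0.30 (SE 0.15, adjusted p = 0.243), and 0.05 (adjusted p = 0.855) within kind B. TRACK over WT was -0.24 (SE 0.14, adjusted p = 0.179). It passed at -0.32 (adjusted p = 0.0284) without WT 2 and turned to 0.16 (adjusted p = 0.489) with kind in the model. GCERAdT over GCERAd was -0.07 (SE 0.15, adjusted p = 0.783).

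The ratio of the receptors split the libraries without overlap. For each Cubn count there were 4.03, 4.4, 4.21, 4.23 and 4.16 Lrp2 counts in WT 1 to 5 and 3.99, 4.18 and 4.38 in GCERAd 1 to 3. The ratio was 2.93 and 3.19 in GCERAd 4 and 5, 2.96, 2.89 and 3.27 in TRACK, and 2.79, 2.7, 2.78 and 2.76 in GCERAdT. Both kinds of library occurred on each side, and WT 2, of kind B, had the highest ratio. The ratio shows unequal change and not which receptor changed, was chosen after its values were seen, and was not tested.

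**Figure D3:**
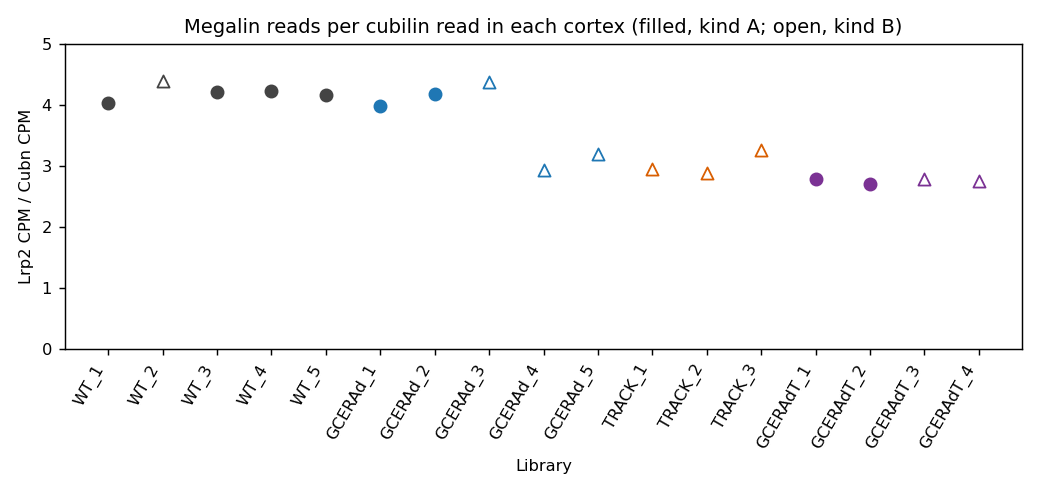
Lrp2 CPM divided by Cubn CPM (y axis) in each of the 17 libraries (x axis), by group and library kind. WT 1 to 5 and GCERAd 1 to 3 lie between 3.99 and 4.4, and the other 9 libraries lie between 2.7 and 3.27.

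Amn, which carries cubilin to the surface, was called in no comparison. It was at 87.4 ± 5.19 CPM in WT, 96.7 ± 9.77 in GCERAd, 93 ± 12.9 in TRACK and 92.5 ± 13.3 in GCERAdT (SD), and its log2 fold change in GCERAd over WT was 0.16 (SE 0.08, adjusted p = 0.171). Dab2, the clathrin adaptor, was at 472, 458, 439, 479 and 430.0 CPM in WT and 521, 516, 490.0, 564 and 520.0 CPM in GCERAd, without overlap. The log2 fold change was 0.21 (SE 0.07, adjusted p = 0.0364), a rise of 15.6%, and the exact permutation p was 0.00794, the smallest that 5 against 5 allow. The call was lost on leaving out any of 8 of the 10 libraries (all but WT 4 and GCERAd 3), with adjusted p of up to 0.0952 at 0.18 to 0.23. It was also lost within kind A, at 0.20 (adjusted p = 0.0808). With the replicate block, where samples of these groups shared only a number, it was lost at 0.21 (adjusted p = 0.113). Dab2 was at 496, 437 and 481 CPM in TRACK and 489, 461, 417 and 481 CPM in GCERAdT, both overlapping WT. Every GCERAdT value lay beneath every GCERAd value, with a log2 fold change of -0.19 (SE 0.08, adjusted p = 0.132) and an exact permutation p of 0.0159, the smallest that 4 against 5 allow.

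Hnf4a, the nuclear receptor of tubule maturation, was at 851, 793, 910.0, 915 and 859 CPM in WT and 1020.0, 946, 821, 966 and 935 CPM in GCERAd. It was at 719, 704 and 741 CPM in TRACK and 722, 709, 620.0 and 691 CPM in GCERAdT, and these 7 values lay beneath all 10 of WT and GCERAd. GCERAdT over GCERAd was -0.46 (SE 0.09, adjusted p = 0.00607) (the level fell by 27.5%), with an exact permutation p of 0.0159. It was called on leaving out any 1 library (-0.50 to -0.41) and within kind A, at -0.45 (adjusted p = 0.00767), and was -0.48 (adjusted p = 0.139) within kind B. TRACK over WT was -0.26 (SE 0.07, adjusted p = 0.0113) (the level fell by 16.6%), which missed the threshold without TRACK 2 (adjusted p = 0.0521) and with kind in the model, at -0.14 (adjusted p = 0.307). The ATF4 contrasts were 0.13 (SE 0.08, adjusted p = 0.26) over WT and -0.06 (SE 0.08, adjusted p = 0.667) over TRACK. Their difference was -0.19 (SE 0.11, adjusted p = 0.23), and with kind in the model -0.31 (adjusted p = 0.0483). The antisense gene Hnf4aos overlaps Hnf4a and had 1.05% of its counts, and since the strand setting of the counting is not given, reads of the 2 cannot be told apart.

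Pax2, a paired-box factor, was at 42.3, 30.5, 51.5, 41.1 and 50.9 CPM in WT and 33.7, 31.8, 23.1, 19.2 and 21.2 CPM in GCERAd, overlapping only through WT 2, the kind B library of WT. The log2 fold change was -0.73 (SE 0.18, adjusted p = 0.0108) (the level fell by 39.8%), with an exact permutation p of 0.0238. It was -0.49 (adjusted p = 0.0112) within kind A and -0.51 within kind B, where WT has 1 library. TRACK had 19.98, 22.8 and 25.7 CPM, beneath all WT cortices, and TRACK over WT was -0.92 (SE 0.16, adjusted p = 0.00147). With kind in the model that value was -0.41 (adjusted p = 0.104). GCERAdT had 32.7, 29.7, 21.2 and 28.3 CPM, with log2 fold changes of 0.30 (SE 0.15, adjusted p = 0.239) over TRACK and 0.10 (SE 0.18, adjusted p = 0.742) over GCERAd. The ATF4 contrasts differed by 1.04 (SE 0.27, adjusted p = 0.0105), by 0.57 (adjusted p = 0.0289) with kind in the model and by 0.62 within kind B, where WT has 1 library.

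Pax8, its relative, was called in no comparison. It was at 76.4 ± 8.58 CPM in WT, 67.7 ± 8.08 in GCERAd, 68.1 ± 3.59 in TRACK and 73.9 ± 9.24 in GCERAdT (SD). The log2 fold change was -0.16 (SE 0.10, adjusted p = 0.254) in GCERAd over WT and -0.17 (SE 0.10, adjusted p = 0.195) in TRACK over WT. The latter passed without WT 2, at -0.22 (adjusted p = 0.0424), and was 0.07 (adjusted p = 0.682) with kind in the model.

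Esrrg, the orphan nuclear receptor, was at 73.5, 74.6, 82.1, 82 and 70.8 CPM in WT and at 93 to 107 CPM in the 12 other cortices, without overlap. The means were 76.6 ± 5.16 CPM in WT, 100.4 ± 5.2 in GCERAd, 103 ± 3.73 in TRACK and 101 ± 3.82 in GCERAdT (SD). GCERAd over WT was 0.40 (SE 0.07, adjusted p = 0.00104), a rise of 32.3%, and TRACK over WT was 0.43 (SE 0.07, adjusted p = 0.0012), a rise of 34.8%. Both were called on leaving out any 1 library and with kind in the model, at 0.42 (adjusted p = 0.00114) and 0.47 (adjusted p = 0.0191). Among the cortices that expressed Ddx3y, the values were -0.03 (SE 0.08, adjusted p = 0.863) in GCERAdT over TRACK and -0.01 (SE 0.07, adjusted p = 0.942) in GCERAdT over GCERAd. The ATF4 contrasts differed by -0.42 (SE 0.09, adjusted p = 0.00357). As the lower level belonged to WT, whose cortices alone expressed Xist above 6.06 CPM, genotype and sex cannot be told apart here.

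How the genes moved with library kind was read from the closest kind B and kind A libraries of a group, WT 2 and 1, GCERAd 3 and 2, and GCERAdT 3 and 2, which correlated at 0.989 each. The labels number these as separate mice, and the sequencing table does not tie its recurring names to them, so whether they are repeat libraries of the same mice is not known. With WT 1 and 2, and GCERAd 2 and 3, summed to 1 library each, GCERAd over WT was 0.41 (adjusted p = 0.0047) for Esrrg, -0.81 (adjusted p = 0.0131) for Pax2 and 0.23 (adjusted p = 0.0526) for Dab2, of which the last missed the threshold. Summed in the same way, GCERAdT over GCERAd was -0.47 (adjusted p = 0.0101) for Hnf4a, and -0.47 (adjusted p = 0.0232) with GCERAdT 2 and 3 summed too. Pax2 was lower in the kind B library, by log2 differences of -0.47, -0.46 and -0.49, and Pax8 by -0.37, -0.33 and -0.37. Cubn differed by -0.25, -0.20 and -0.27, Lrp2 by -0.12, -0.14 and -0.23, Hnf4a by -0.10, -0.21 and -0.19 and Dab2 by -0.04, -0.08 and -0.14. Amn and Esrrg lay between -0.10 and 0.03, and the median over genes was -0.01 in each pair. The kinds were unevenly placed in GCERAd over WT and TRACK over WT. In TRACK over WT the fit with kind in the model and that within kind B both rest on WT 2, so that kind and that library cannot be told apart there.

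**Figure D4:**
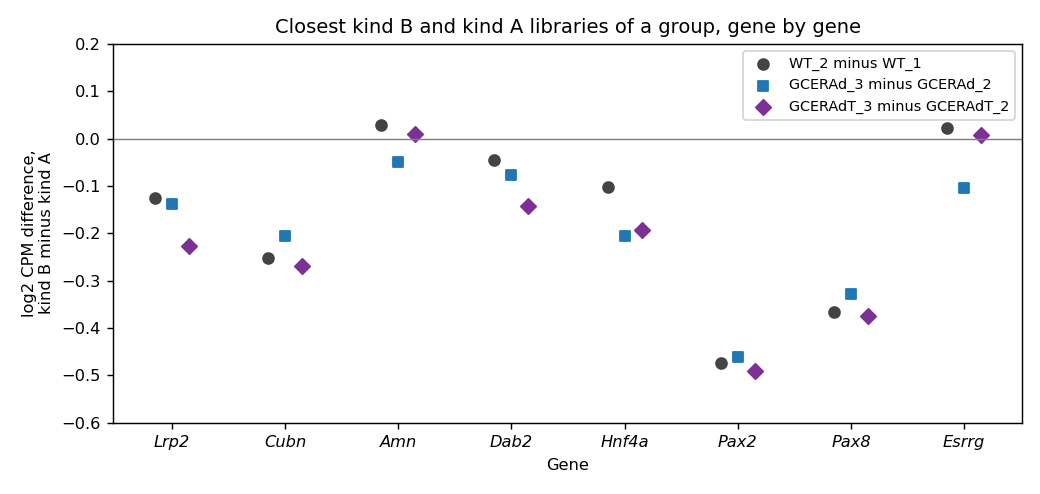
Log2 CPM of the kind B library minus that of the closest kind A library of its group (y axis) for each of the 8 genes (x axis), for the pairs from WT, GCERAd and GCERAdT. Pax2 lies between -0.49 and -0.46 and Pax8 between -0.37 and -0.33 in all 3 pairs.

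Other genes of the pathway were taken as lists. Beside each count stands its range over the alternatives other than leaving out 1 library, with the count within kind B apart. The range takes in the replicate block, though outside GCERAdT over GCERAd same-numbered samples shared only a number. WT has 1 library of kind B, so there the counts against WT and in the difference cannot show whether a list keeps its calls. Few genes of any sort were called within kind B, 221 of 11885 in GCERAdT over TRACK and 349 of 11803 in GCERAdT over GCERAd. Of 40 genes of uptake and endosomal sorting, GCERAd over WT called 8 higher and 3 lower (27.5%, against 27.6% of all genes, range 4 with kind A alone to 16 with DESeq2, and 0 within kind B), with a median log2 fold change of 0.10 against 0.00 over all genes. Lrp1, a receptor related to megalin, rose from 24.5 ± 4.64 to 45.9 ± 6.17 CPM, a log2 fold change of 0.92 (adjusted p = 5.4e-04). Inpp5b, a phosphoinositide phosphatase related to OCRL, was at 0.62 (adjusted p = 5.8e-04), Clcn5, the endosomal chloride-proton exchanger, at 0.33 (adjusted p = 0.00383), and Cltc, the clathrin heavy chain, at 0.28 (adjusted p = 0.00657). TRACK over WT called 10 higher and 8 lower (45%, against 45.6%), with a range of 9 with kind in the model to 22 with DESeq2, and 7 within kind B. Scarb2, a lysosomal membrane protein, was at 1.28, Scarb1, a lipoprotein receptor, at 0.94, Ehd3, a recycling ATPase, at 0.92 and Inpp5b at 0.79.

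GCERAdT over TRACK called 1 of the 40 higher and 7 lower (20%, against 7.09%), with a range of 3 with the replicate block to 10 with DESeq2, and 3 within kind B. Inpp5b was at -0.84 (adjusted p = 0.00181), Ehd3 at -0.65, Scarb1 at -0.50 and Slc9a3, the brush border sodium-proton exchanger, at -0.44. GCERAdT over GCERAd called 1 higher and 6 lower (17.5%, against 19.2%), with a range of 3 with 3 repeat pairs summed to 14 with the replicate block, and 0 within kind B. Scarb1 was at 0.61, Inpp5b at -0.68, Slc9a3 at -0.55 and its scaffold Slc9a3r1 at -0.77. The difference of the ATF4 contrasts called 10 of the 40 (25%, against 25.1%, range 7 with no FPKM minimum to 15 with GCERAd 4 and 5 left out, and 2 within kind B), led by Inpp5b at -1.45 (adjusted p = 2.0e-06) and Lrp1 at -1.52 (adjusted p = 1.8e-04).

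Of 16 subunits of the V-ATPase, the proton pump that acidifies endosomes and also serves intercalated cells of the collecting duct, GCERAd over WT called 5, all higher (31.2%, against 27.6%), with a range of 1 with the replicate block to 6, and 0 within kind B. Atp6v1b2 rose from 278 ± 4.64 to 373 ± 26.2 CPM, a log2 fold change of 0.44 (adjusted p = 6.0e-04). Atp6v1a was at 0.48, Atp6v1h at 0.41 and Atp6v1d at 0.22. TRACK over WT called 2 higher, Atp6v1a at 0.55 and Atp6v1h at 0.33, and 1 lower, Atp6v1g1 at -0.43 (18.8% in all, against 45.6%, range 2 with the replicate block to 5 with repeat libraries summed, and 0 within kind B). GCERAdT over GCERAd called 5, all lower (31.2%, against 19.2%, range 2 with no FPKM minimum or repeat libraries summed or 3 repeat pairs summed to 9 with kind in the model or the replicate block, and 0 within kind B), among them Atp6v1b2 at -0.51 and Atp6v1d at -0.42. In GCERAdT over TRACK edgeR called 0 of 16, against 7.09% of all genes, with 2 at an unadjusted p under 0.05, and DESeq2 called 1. Between the ATF4 contrasts, 8 of 16 differed, 7 of them towards lower, with Atp6v1b2 at -0.61 (adjusted p = 6.8e-04), with a range of 3 with kind in the model to 8 with DESeq2 or RLE scaling or repeat libraries summed, and 0 within kind B. That share was 50%, against 25.1%.

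Of 20 genes for proteins that megalin and cubilin bind, 14 were tested in GCERAd over WT, where 2 rose and 7 fell (64.3%, against 27.6%, range 8 with repeat libraries summed to 9, and 1 within kind B). Gc, the vitamin D binding protein, fell from 118 ± 14.4 to 27.9 ± 6.44 CPM, a log2 fold change of -2.07 (adjusted p = 3.2e-06). Apoe was at -1.70 and Mt1, a metallothionein, at -1.17, while Selenop, the selenium carrier, rose from 1254 ± 50.1 to 2611 ± 227 CPM. TRACK over WT called 7 higher and 3 lower of 15 (66.7%, against 45.6%, range 7 with kind in the model to 11 with DESeq2, and 5 within kind B), with Gc at 1.34, Ttr, the thyroxine carrier, at 1.94 and Apom at -0.91. GCERAdT over TRACK called 5 of 15, all lower (33.3%, against 7.09%), with Ttr at -1.09, Lcn2 at -2.30, Apoa1 at -1.28 and Gc at -0.38. The range was 0 with kind in the model to 6 with no FPKM minimum, and 0 within kind B, so that every call was lost with kind in the model. GCERAdT over GCERAd called 5 higher and 4 lower of 15 (60%, against 19.2%, range 5 with 3 repeat pairs summed to 12 with the replicate block, and 2 within kind B). Rbp4, the retinol carrier, was at 0.5 ± 0.0227 CPM in GCERAd and 17.9 ± 4.33 CPM in GCERAdT, a log2 fold change of 5.14 (adjusted p = 5.1e-08). Gc was at 27.9 ± 6.44 CPM in GCERAd and 229 ± 20.9 CPM in GCERAdT, a log2 fold change of 3.02 (adjusted p = 1.1e-06). Selenop was at -0.69 and Apom at -0.58. Of the 15 tested, 6 differed between the ATF4 contrasts, 3 in each direction (40%, against 25.1%, range 5 with the replicate block or repeat libraries summed or 3 repeat pairs summed to 8 with kind in the model or GCERAd 4 and 5 left out, and 4 within kind B). Among them were Gc at 1.70, Apoe at 1.59 and Selenop at -1.27.

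Of 38 further transcription factors of the nephron, 31 were tested. GCERAd over WT called 6 higher and 9 lower (48.4%, against 27.6%, range 10 with the replicate block to 18 with 1 fit of all 17 libraries, and 0 within kind B), with Sim1 at -0.89, Tfap2b at -0.77 and Irx2 at -0.94. Esrrb, a relative of Esrrg, fell where Esrrg rose, from 65.5 ± 7.56 to 33.1 ± 4.77 CPM, a log2 fold change of -0.97 (adjusted p = 6.6e-05). TRACK over WT called 5 higher and 12 lower (54.8%, against 45.6%), with a range of 7 with kind in the model to 18 with no FPKM minimum, and 6 within kind B. Nr1h4, the bile acid receptor, was at 1.51, Rxra, the partner of many nuclear receptors, at 0.54, Tfap2b at -0.92 and Emx1 at -0.85. GCERAdT over TRACK called 2 higher and 3 lower (16.1%, against 7.09%, range 1 with 3 repeat pairs summed to 8 with DESeq2, and 0 within kind B), with Nr1h4 at -0.58, Rxra at -0.46, Cited2 at 0.46 and Maf at 0.48. GCERAdT over GCERAd called 3 in each direction (19.4%, against 19.2%, range 2 with 3 repeat pairs summed to 9 with the replicate block or kind A alone or GCERAd 4 and 5 left out, and 0 within kind B), with Sox4 at 0.62, Cited2 at 0.74, Esrra, another estrogen-related receptor, at -0.53 and Emx1 at -0.37. The ATF4 contrasts differed in 12, 9 of them towards higher (38.7%, against 25.1%, range 9 with 3 repeat pairs summed to 13 with GCERAd 4 and 5 left out, and 1 within kind B), with Tfap2b at 1.19 (adjusted p = 6.0e-05), Sim1 at 1.14 and Nr3c2, the mineralocorticoid receptor, at 0.61, and with Rxra at -0.97.

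The 15 proximal tubule markers were counted the same way. GCERAd over WT called 6, all higher (40%, against 27.6%, range 5 with no FPKM minimum or the replicate block or repeat libraries summed to 8 with kind A alone or GCERAd 4 and 5 left out, and 0 within kind B), with Acsm2 at 1.72, Slc22a6, an organic anion transporter, at 1.39, Kap, the kidney androgen-regulated protein, at 1.88 and Keg1 at 0.84. TRACK over WT called 6 higher and 4 lower (66.7%, against 45.6%, range 7 with kind in the model to 11 with DESeq2, and 5 within kind B). Slc34a1, the main phosphate transporter, fell from 3046 ± 300.2 to 1059.5 ± 201 CPM, a log2 fold change of -1.52 (adjusted p = 2.2e-05), with Miox at -1.46, Slc5a12 at -1.20 and Pck1, of gluconeogenesis, at 1.61. GCERAdT over GCERAd called 9, all lower (60%, against 19.2%, range 6 with 3 repeat pairs summed to 13 with kind A alone, and 0 within kind B), with a median of -0.56, among them Slc34a1 at -1.35, Miox at -1.29, Acsm2 at -1.06 and Aqp1 at -0.60. GCERAdT over TRACK called 1, Slc27a2 at -0.42 (6.67%, against 7.09% of all genes). The range was 0 with kind in the model or 3 repeat pairs summed to 7 with DESeq2, and 0 within kind B. Between the ATF4 contrasts 7 of 15 differed, 6 of them towards lower (46.7%, against 25.1%, range 7 to 8 with DESeq2 or the replicate block, and 1 within kind B). Of 4 injury markers, Havcr1 was at no more than 0.483 CPM in WT, at 0.568 to 7.92 CPM in GCERAd, 12.3 to 21.9 CPM in TRACK and 26.1 to 35.4 CPM in GCERAdT. TRACK over WT called 3 of the 4, all higher (75%, against 45.6%), with Havcr1 at 6.32, Krt20 at 4.99 and Vcam1 at 1.36. GCERAd over WT called all 3 of these that were tested (100%, against 27.6%). Havcr1 and Vcam1 were called as higher, at 3.67 and 0.62, and Spp1 as lower, at -1.16. Spp1 was at 1205 to 1442 CPM in WT, 497, 596 and 1381 CPM in TRACK and 539 to 638 CPM in GCERAdT. Krt20 and Vcam1 were called lower in GCERAdT over TRACK, where Havcr1 was called higher (3 of 4, 75%, against 7.09%). GCERAdT over GCERAd called 1 of 3 tested, Havcr1 at 3.47 (33.3%, against 19.2%). The called injury markers thus shared a direction in TRACK over WT, but not in GCERAd over WT or GCERAdT over TRACK. For these markers no range over the alternatives is given, and their part in the results was not tested.

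**Figure D5:**
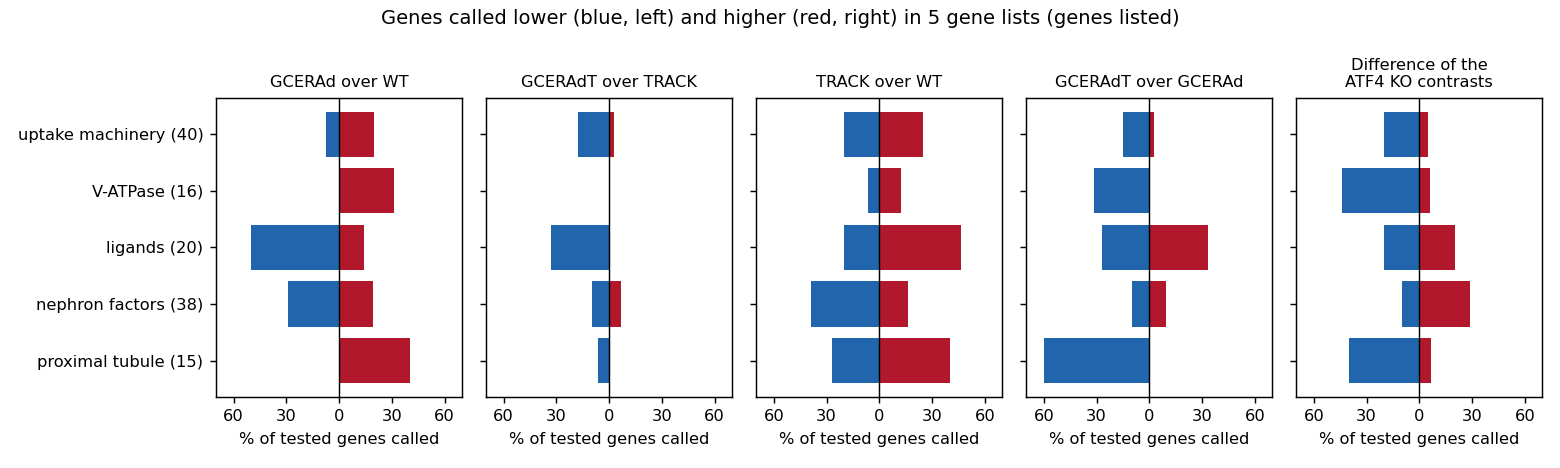
Share of the tested genes of each list called lower and higher, in percent (x axis), in the 4 comparisons and in the difference of the ATF4 contrasts. In GCERAdT over GCERAd, 9 of 15 proximal tubule markers and 5 of 16 V-ATPase subunits were called, all lower, and in GCERAd over WT 6 and 5 of these lists were called, all higher.

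Across the 17 cortices, as a description since they share groups and library kind, Lrp2 correlated in log2 CPM with Cubn at a Pearson r of 0.763, with Pax2 at 0.696 and with Hnf4a at 0.660. With Amn the r was -0.26 and with Dab2 0.00. Among 12208 genes, those most like Lrp2 included Slc4a2 (0.966), Arvcf (0.963), Mbtps1 (0.955) and Atf6b (0.952). The most like Cubn were Pkhd1 (0.897), Zfp93 (0.892), Zfp955a (0.878), Gpr137b-ps (0.875) and Dnajb6 (0.874). The most like Hnf4a were Pde4dip (0.962), Slc35e3 (0.936), Iqsec2 (0.917), Ass1 (0.912) and Bid (0.904).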

How the data were processed

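Bulk mRNA of 17 mouse kidney cortices was read with a stranded mRNA kit. Per the labels, the authors trimmed reads with cutadapt, aligned them with STAR to GRCm38 and counted them per gene with HTSeq, and deposited 1 table of raw counts. The annotation release and strand setting are not given in the sources used here. The 53688512 to 71364561 counts per library bear on counting error only. The cluster counts in the sequencing table of the study are smaller, also with the rows of a sample added. The reason is not given there, so the totals may not count separate fragments. Groups and replicate numbers came from the labels. Members and lists were chosen with earlier results of these data known.

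Differential expression used edgeR 4.0.16 (TMM, quasi-likelihood test, R 4.3.3) on genes whose mean FPKM reached 1 in 1 of the groups or more (merged exons of GENCODE M21), with Benjamini-Hochberg adjustment over all genes tested. Every adjusted p in the text comes from edgeR unless DESeq2 1.42.0 is named. CPM used TMM factors over all samples. Single genes were compared by 32 two-sided exact permutation tests of log2(CPM + 0.5). Named were all 8 members and up to 4 called genes of each list by adjusted p. Simulated data held 200 genes changed 2-fold and no effect of library kind or sex. There, 95.5% were recovered for GCERAd over WT, 82.5% for GCERAdT over TRACK and 73.5% for the difference of the ATF4 contrasts. In the 4 comparisons the called members changed by less than 2-fold, so these shares do not tell how often changes of their size are found. Replicate numbers were taken to pair samples only for GCERAdT over GCERAd, from the correlation of deviations (0.305 to 0.460). Same-numbered libraries of these 2 groups also shared library kind, so the correlation does not show that they were paired. Alternatives were DESeq2, RLE scaling, no FPKM minimum, 1 fit of all samples, library kind, a replicate block, summed repeat libraries and each library left out. The 3 repeat pairs summed, single kinds and the fit without GCERAd 4 and 5 were chosen after seeing the data. A gene that the naming rule selects is not reported here.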

Additional observations from a re-analysis of the deposited data

Results flagged for a closer look

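Pax8 in GCERAdT 3 was at 60.1 CPM, far from the other GCERAdT libraries (gap over range 0.92), and Esrrg in GCERAdT 4 was at 94.9 CPM (0.921). Of 24 groups of values tested for such a sample, chance gives about 1 in 20. GCERAdT over TRACK and GCERAd over WT differed for Pax2, by 1.04 on the log2 scale, and for Esrrg, by -0.425, in edgeR's test of the difference itself. WT cortices had Ddx3y at 0 and all others expressed it, so in this difference background and sex cannot be told apart.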

How the results depend on the processing

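Of 776 recomputed values, 696 kept their direction and side of the threshold, 27 lost the threshold, 9 gained it and 44 changed sign. The number of members called moved over 1.5 times in these cases. In GCERAd over WT it was 0 within kind B. In TRACK over WT it was 1 with kind as a covariate and 1 within kind B. In GCERAdT over GCERAd it was 2 with DESeq2, kind as a covariate, the replicate block, kind A only or without GCERAd 4 and 5, and 0 within kind B. In the difference of contrasts it was 0 within kind B. The cause was not tested, except that single kinds hold fewer samples.

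Log2 fold changes that changed sign were these. For Lrp2 in GCERAd over WT they were 0.1577 with the kind covariate, 0.2239 in kind A, 0.04381 in kind B and 0.2574 without GCERAd 4 and 5. In GCERAdT over TRACK, Amn was -0.003564 with DESeq2, -0.003567 with RLE, -0.01321 with no FPKM minimum, -0.005916 in 1 fit of all samples and -0.08863 with the replicate block, Esrrg was 0.004011 with the block, and Lrp2 was -0.07948 with the kind covariate and -0.08217 in kind B. In TRACK over WT, with the kind covariate and in kind B, Cubn was 0.1618 and 0.1626, Amn -0.003549 and -0.003264, and Pax8 0.07432 and 0.07504. In GCERAdT over GCERAd, Esrrg was 0.005818 in 1 fit, 0.0151 in kind A and 0.03105 without GCERAd 4 and 5, Pax2 was -0.06242 and -0.07288 in the last 2, and Amn 0.02936 in kind B. In the difference, with the kind covariate and in kind B, Lrp2 was -0.2497 and -0.143 and Cubn -0.2286 and -0.3249, while Lrp2 was -0.1009 without GCERAd 4 and 5 and Amn 0.02442 in kind B.

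Leaving out 1 library gave, in GCERAd over WT, -0.1197 to 0.09095 for Lrp2. In GCERAdT over TRACK it gave -0.09716 to 0.09167 for Amn, -0.07589 to 0.02057 for Dab2 and -0.05217 to 0.007574 for Esrrg. It gave -0.005103 to 0.1952 for Amn in TRACK over WT, and -0.1895 to 0.02175 for Cubn and -0.02428 to 0.02578 for Esrrg in GCERAdT over GCERAd. Outside GCERAdT over GCERAd, samples shared only a number (deviation r of -0.485 to 0.024), and the replicate block gave 2106 calls in place of 3198 in GCERAd over WT, 715 in place of 846 in GCERAdT over TRACK and 3431 in place of 5458 in TRACK over WT. In GCERAdT over GCERAd, where same-numbered libraries were also of the same kind, the block gave 3770 in place of 2266.

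Over all genes, the number called moved over 1.5 times as follows. GCERAdT over TRACK gave 1562 with DESeq2, 462 with the kind covariate, 498 with 3 repeat pairs summed, 221 within kind B and 379 to 1424 on leaving out 1 library (highest without GCERAdT 4), against 846. GCERAd over WT gave 98 within kind B. TRACK over WT gave 2776 with the kind covariate and 1475 within kind B. GCERAdT over GCERAd gave 1168 with 3 repeat pairs summed, 349 within kind B and 1427 without GCERAdT 2. The difference gave 452 within kind B, against 3070.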
